A study of Mus musculus with 6 samples.

Results

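Potassium channel genes were examined on 6 one-colour arrays of cultured mouse astrocytes, the star-shaped glial cells of the brain. The members are all genes whose symbol starts with Kcn, the prefix of channel pore subunits, of proteins that bind them and of a few noncoding transcripts from the same loci, with Kcnj10 left out. Of 32225 genes and transcripts with a probe on the array, 85 were members, measured by 119 of 41174 probes. Another 12 such symbols of the reference table had no matched probe. The members that could be compared were chosen by the scanner's detection flag: in 1 group or both, each of the 3 arrays had to show the probe well above background, which 48 probes of 41 members met.

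The 3 miR-29 arrays came from astrocytes that received precursors of miR-29a, b and c, mixed 1 to 2 to 1, and the 3 control arrays from astrocytes given a negative control precursor. Both groups were primary C57BL/6 cultures from the cerebral cortex of embryonic day 18, bought from a supplier, transfected at 80 nM 3 weeks after plating and harvested after 48 h, with a stated transfection efficiency above 90%. The replicates are repeat RNA extractions, and no label names separate cultures, so p-values here reflect the spread among these 6 samples alone, and that spread may be technical. The series title calls miR-29 a potential longevity determinant, and the design asks which transcripts differ when it is raised.

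MicroRNAs pair with messenger RNAs through their seed, the stretch of bases 2 to 8, and lower the level of many of them. The miR-29 sequences are shown because they are the treatment itself. The mouse mature forms, from RefSeq on GRCm38.p6, lie on chromosome 6 (miR-29a at chr6:31062673-31062694 and miR-29b at chr6:31063025-31063047, minus strand) and on chromosome 1 (miR-29b again at chr1:195037091-195037113 and miR-29c at chr1:195037600-195037621, plus strand). They are given 5′ to 3′ with the seed in capitals, which is the same in all 3, while miR-29a differs from miR-29c at 1 of 22 bases and from miR-29b at 4.
miR-29a: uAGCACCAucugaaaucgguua
miR-29b: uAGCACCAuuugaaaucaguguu
miR-29c: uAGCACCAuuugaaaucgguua
Sites for this seed in the members' transcripts were not analysed here.

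Potassium channels let potassium ions cross the membrane along their gradient. In astrocytes, inward rectifiers and two-pore domain channels hold the membrane near the potassium equilibrium and take part in clearing potassium that neurons release. Voltage-gated channels open on depolarization, calcium-activated channels link potassium efflux to calcium signals, and auxiliary subunits change the gating or the surface level of the pores.

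Signals are given below as a percent of the 75th percentile of the same array, and fold changes as log2 of miR-29 over control. The 75th percentile lay between 501.2 and 662.7 units of processed signal, each array had 61.9% to 66.8% of its probes well above background, and no spot was saturated. Control replicates 2 and 3 shared slide 2, while control replicate 1 was on slide 1 with all miR-29 arrays. A fit with the slide as a block therefore takes its fold change from slide 1 alone. That fit and the comparison within slide 1 give the same fold change, with control replicate 1 as the only control. A call lost in them need not mean a smaller difference. Astrocyte identity was checked with 10 markers, of which all 10 were above background in both groups. Their summed signal was 9690% to 10700% in the miR-29 arrays and 6750% to 7070% in the control arrays. Markers of other cells were present too: 7 of 10 neuron markers in the miR-29 arrays and 8 of 10 in the control arrays (summed signal 10100% to 13800% and 11000% to 14800%, nearly all of it from Syn1, and 596% to 619% and 701% to 763% without it). In both groups 9 of 10 oligodendrocyte lineage markers were above background (1030% to 1080% and 936% to 1390%, and 578% to 581% and 494% to 504% without Mag, the brightest). So were 3 of 6 endothelial markers (176% to 187% and 210% to 245%, mostly from Flt1, and 15.2% to 16.7% and 13.1% to 17.4% without it). In addition, 8 of 10 fibroblast and mural markers were above background in both groups, with the greatest summed signal of these lists (54800% to 59500% and 34400% to 38600%, and 31400% to 33700% and 19600% to 21800% without Acta2, the brightest). Of these 8, 5 were higher in the miR-29 arrays and 1 was lower. Only 2 of 7 measured microglia markers were above background throughout a group (summed signal of all 7 12% to 15.7% and 13.7% to 24.2%). The microglial genes Aif1, Cx3cr1, Ptprc and Tyrobp were below background on all arrays, as were Mog, Tek and the pericyte marker Rgs5. Which cells carried each channel transcript, and what part these markers had in the results, was not tested. In such cultures fewer cells of a type and less RNA per cell cannot be told apart.

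Of the 41 members compared, 12 were lower and 14 higher in the miR-29 arrays, and 15 did not pass the test (limma, adjusted p under 0.05 over 19741 genes and transcripts). Of these 26 called members, 3 were above background throughout 1 group only, the group where they were high, so their place in these counts is a description. Over all genes 22.8% were lower and 35.3% higher, 58.1% in either direction, so the members' shares of 29.3%, 34.1% and 63.4% lay near that background and are no result about the family. The counts by role below rest on few genes each, stand beside these same shares of all genes and are no result about a role. The median log2 fold change was 0.003 over the 41 members and 0.068 over all genes. By size, 4 members fell at least 2-fold, Kcnk6, Kcnn4, Kcnk3 and Kcnn2, where 3.64% of all genes did, and 1 rose at least 2-fold, Kcnj16, where 3.29% did. All 26 members that passed also had groups that did not overlap. They made up 63.4% of the 41, where 57.8% of all genes both passed and did not overlap. With the slide as a block, 8 members were lower and 13 higher, where 18.3% and 28.7% of all genes were. Restricted to the 36 members above background on all 6 arrays, 11 were lower and 12 higher, against 24% and 35.7% of all genes under that filter. With the arrays scaled to 6 detected spike-in types, every log2 fold change moved by -0.245, the median of all genes to -0.178, and 13 members were lower and 6 higher (37.7% and 15.4% of all genes). The share of higher members among those past the test was then 31.6%, against 53.8% in the main scaling, and no member past the test changed sign.

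**Figure D1:**
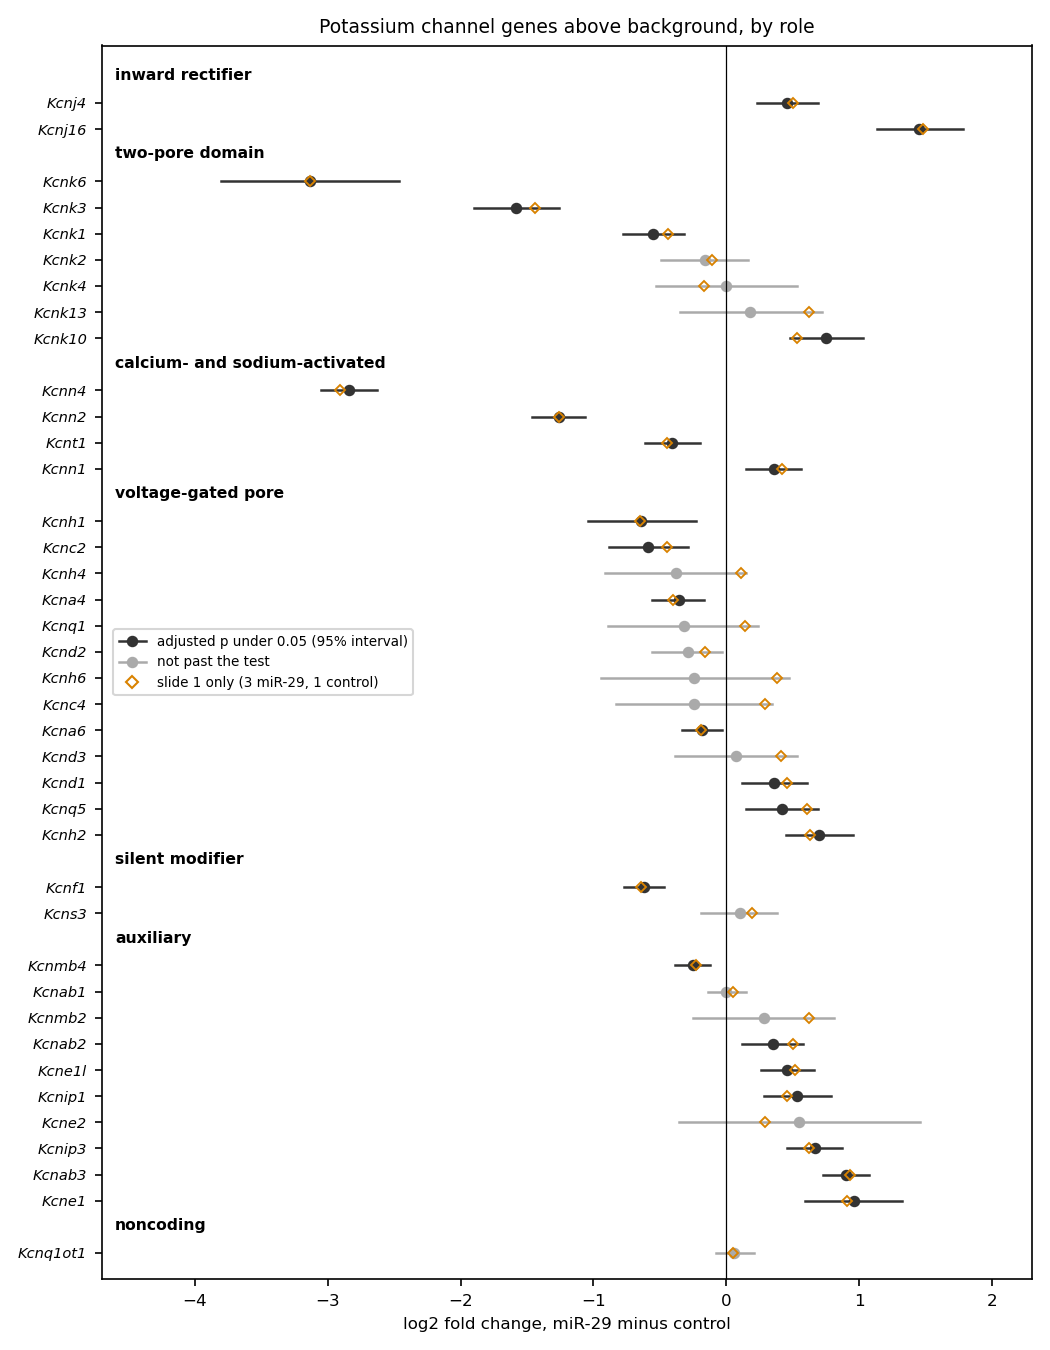
Log2 fold change, miR-29 minus control, of 39 of the 41 members above background, ordered by role. Filled points are fits over 3 arrays a group with 95% intervals (dark where adjusted p was under 0.05, grey otherwise), and open diamonds compare the 3 miR-29 arrays with control replicate 1 on the same slide. Kcnk6 and Kcnn4 lie farthest to the left at -3.13 and -2.84, Kcnj16 farthest to the right at 1.45. The points of Kcnk6, Kcne1, Kcne2 and Kcnk4, detected throughout 1 group only, are descriptions. With spike-in scaling every main value would sit 0.245 lower.

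Inward rectifiers pass potassium more easily into the cell than out of it. Of 13 members measured, 2 were above background and both rose. Kcnj16 encodes Kir5.1, which forms channels only together with other inward rectifiers, the astrocytic Kir4.1 among them. Its signal was 20.6%, 21.5% and 17.4% in the miR-29 arrays, against 7.07%, 8.43% and 6.30% in the control arrays. All miR-29 arrays lay at more than double the highest control array's level, and the rise was 1.45 on the log2 scale (limma, 3 arrays a group, SE 0.132, adjusted p = 0.000336, 2.74-fold). A dimmer probe of Kcnj16, above background in the miR-29 arrays only, had 2.17%, 1.74% and 2.08% in the miR-29 arrays, against 1.2%, 1.43% and 1.02% in the control arrays, a log2 difference of 0.72. With normexp background correction the rise was 0.79 (adjusted p = 0.0014). Kcnj4, the gene of Kir2.3, had 18.7%, 20.8% and 17.2% in the miR-29 arrays, against 13.4%, 15.0% and 12.8% in the control arrays. This rise of 0.46 (SE 0.0944, adjusted p = 0.00736 by limma) ended with spike-in scaling (0.22, adjusted p = 0.106) and with normexp (0.21, adjusted p = 0.0923).

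The other inward rectifiers were dim. Kcnj2, which encodes Kir2.1, was above background on 1 array, at 1.72%, 2.11% and 1.62% in the miR-29 arrays, against 1.12%, 0.853% and 0.767% in the control arrays, so the groups did not overlap but no level was established. Kcnj8, the gene of Kir6.1, a pore of ATP-sensitive channels in mural cells, had neither probe well above background on any array. The partners of these pores, the sulphonylurea receptor genes Abcc8 and Abcc9, had no probe well above background throughout a group. The brightest probe of each was so on no array, while a dimmer probe of Abcc9 was so on some array.

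Two-pore domain channels carry background potassium currents that set the resting potential. Of 10 measured, 7 were above background in at least 1 group: 3 were lower, Kcnk6 among them without a test, and 1 rose. Another 3 did not pass, Kcnk4 among them as a description. Kcnk6, which encodes TWIK-2, had 0.608%, 0.406% and 0.892% in the miR-29 arrays, none well above background, against 5.30%, 5.61% and 5.00% in the control arrays, all well above it. It was at least 3.16-fold lower, comparing the control mean with the lowest signal that counted as above background on each miR-29 array. Since detection in the control arrays alone brought Kcnk6 into the comparison, its difference is a description with no test. Kcnk3, the gene of the acid-sensitive channel TASK-1, had 2.29%, 2.06% and 2.80% in the miR-29 arrays, against 6.43%, 7.80% and 7.01% in the control arrays. The highest miR-29 array was well under the lowest control array, with a fall of 1.58 (SE 0.131, adjusted p = 0.000243 by limma, 2.98-fold), which normexp lowered to -0.36 (adjusted p = 0.00997). Its other probe, above background on 2 miR-29 arrays and all control arrays, differed by -0.84.

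Kcnk1, which encodes TWIK-1, a channel of mature astrocytes, had 5.65%, 6.33% and 5.10% in the miR-29 arrays, against 7.70%, 8.56% and 8.66% in the control arrays. It fell by 0.55 (SE 0.0947, adjusted p = 0.00382), a call that ended within slide 1 (-0.44, adjusted p = 0.0665) and with normexp (-0.15, adjusted p = 0.132). Its relatives of the TREK group, opened by stretch and lipids, differed from one another in their values. Kcnk10, the gene of TREK-2, had 9.53%, 9.25% and 10.2% in the miR-29 arrays, against 6.69%, 5.56% and 5.03% in the control arrays, and rose by 0.75 (SE 0.111, adjusted p = 0.00207; 0.35 with normexp, adjusted p = 0.0301). Kcnk2, the gene of TREK-1, had 9.06%, 9.91% and 12.4% in the miR-29 arrays, against 11.2%, 10.8% and 12.9% in the control arrays. Those ranges overlapped, and its log2 fold change of -0.16 did not pass (95% interval -0.49 to 0.16, adjusted p = 0.327). Whether Kcnk10 and Kcnk2 differ in response was not tested. Kcnk4, the gene of TRAAK, was above background on all miR-29 arrays and on 2 control arrays, so its 0.00 (95% interval -0.53 to 0.53) is a description. Kcnk13, the gene of THIK-1, had 77.4%, 68.0% and 61.9% in the miR-29 arrays, against 44.9%, 81.0% and 61.1% in the control arrays. Its control arrays spanned the miR-29 arrays, so that 0.18 did not pass (adjusted p = 0.493), and control replicate 1 was the lowest of all, with 0.62 within slide 1.

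Calcium- and sodium-activated channels showed the greatest tested fall among the members. Of 8 measured, 4 were above background, of which 3 fell and 1 rose. Kcnn4 encodes the intermediate-conductance channel KCa3.1, known from activated immune cells, proliferating cells and reactive astrocytes. Its signal was 9.69%, 10.5% and 11.8% in the miR-29 arrays, against 80.1%, 73.4% and 75.6% in the control arrays. Spread within each group was small beside the gap, and the fall was 2.84 (SE 0.0857, adjusted p = 2.57e-05 by limma, 7.18-fold), with -2.91 within slide 1 and -1.95 with normexp. Among the microglia markers, Aif1, Cx3cr1, Ptprc and Tyrobp were below background on all arrays. Itgam was above background on 0 miR-29 arrays and 2 control arrays, with mean signals of 1.05% and 2.85%, and was not compared. The markers above background throughout both groups, Csf1r and P2ry12, moved in opposite directions. What part microglia had in the fall of Kcnn4 was not tested. Csf1r had a mean signal of 4.56% in the miR-29 arrays and 12% in the control arrays (-1.39, adjusted p = 0.0196), and P2ry12 had 5.27% in the miR-29 arrays and 3.67% in the control arrays (0.53, adjusted p = 0.0305).

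Kcnn2, the gene of the small-conductance channel SK2, had 31.6%, 36.7% and 30.1% in the miR-29 arrays, against 78.5%, 79.2% and 76.7% in the control arrays. The fall of 1.26 (SE 0.0817, adjusted p = 0.000109) was close to that of a dimmer second probe, which fell by 1.04 (SE 0.112). Its relative Kcnn1, the gene of SK1, had 23.2%, 21.9% and 20.7% in the miR-29 arrays, against 16.4%, 19.0% and 16.2% in the control arrays. This rise of 0.36 (SE 0.0829, adjusted p = 0.0122) ended with spike-in scaling (0.11, adjusted p = 0.288) and normexp (0.21, adjusted p = 0.0656). Kcnn3, the gene of SK3, was above background on 2 miR-29 arrays and no control array, at 2.17%, 2.58% and 1.77% against 1.65%, 0.932% and 1.40%. Kcnt1, a sodium-activated channel gene, had 15.4%, 16.3% and 13.4% in the miR-29 arrays, against 20.5%, 20.3% and 18.9% in the control arrays. It fell by 0.41 (SE 0.0845, adjusted p = 0.00783), and the call ended within slide 1, where -0.45 was no smaller a difference. Normexp gave -0.26, and a second probe gave -0.23 and did not pass (adjusted p = 0.112). Kcnma1, the gene of the large-conductance channel BK, had its 1 probe well above background on no array, with signals of 0.336%, 0.328% and 0.356% in the miR-29 arrays and 0.582%, 0.414% and 0.312% in the control arrays.

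**Figure D2:**
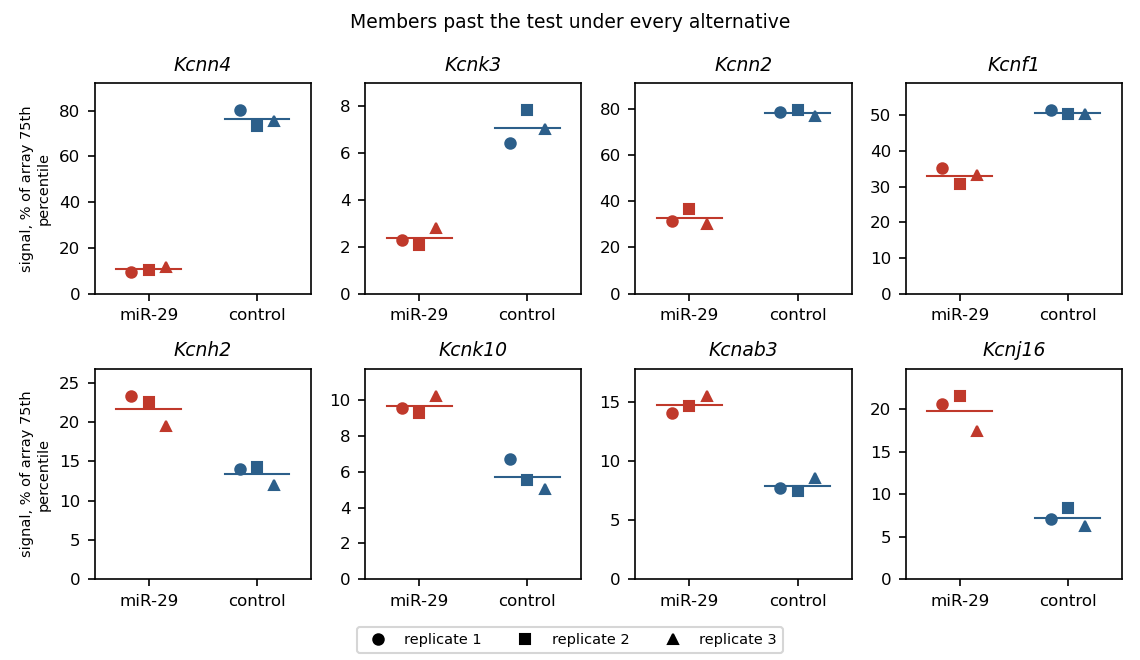
Signal of 8 members as a percent of the 75th percentile of each array (linear axis from 0), with 3 miR-29 arrays on the left and 3 control arrays on the right of each panel, symbols for replicates and a line at the geometric mean. These are the members above background on all 6 arrays that passed the test in each of 18 alternatives, with spike-in scaling among them. The groups do not overlap in any panel.

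Voltage-gated pore subunits were the most numerous role, with 28 measured and 15 above background, of which 4 were lower, 4 higher, 1 of those as a description, and 7 did not pass. Kcnh2 encodes ERG1, the channel of the rapid delayed rectifier current of the heart. It had 23.3%, 22.6% and 19.5% in the miR-29 arrays, against 14.0%, 14.3% and 12% in the control arrays, and rose by 0.70 (SE 0.101, adjusted p = 0.00192; 0.42 with normexp, adjusted p = 0.00648). Kcnh1, the gene of the related channel EAG1, had 4.12%, 3.25% and 2.66% in the miR-29 arrays, against 5.18%, 5.56% and 4.67% in the control arrays. Its fall of 0.64 (SE 0.165, adjusted p = 0.018) did not pass with normexp (-0.12, adjusted p = 0.368). It did not pass in the fit blocked by slide (-0.65, adjusted p = 0.0888) or within slide 1, though the difference there was no smaller. Leaving out miR-29 replicate 2 (-0.63, adjusted p = 0.0566) or control replicate 2 (-0.58, adjusted p = 0.0565) also ended the call.

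Kcnq5, of the family that carries the M current, had 7.45%, 6.67% and 6.16% in the miR-29 arrays, against 4.42%, 5.44% and 5.35% in the control arrays. The rise was 0.42 (SE 0.11, adjusted p = 0.019), and it did not pass with spike-in scaling (0.17, adjusted p = 0.247), with normexp (0.12, adjusted p = 0.165), without miR-29 replicate 1 (0.34, adjusted p = 0.0581) or without miR-29 replicate 2 (0.42, adjusted p = 0.0542).

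Among the A-type channel genes of the Kv4 group, Kcnd1 had 3.54%, 4.00% and 4.24% in the miR-29 arrays, against 2.85%, 3.41% and 2.91% in the control arrays. This rise of 0.36 (SE 0.1, adjusted p = 0.0231) ended under 8 of the 18 alternatives, among them spike-in scaling (0.12, adjusted p = 0.469), normexp (0.20, adjusted p = 0.106) and leaving out miR-29 replicate 2 or 3 or control replicate 1 or 3 (0.30 to 0.34, adjusted p = 0.0514 to 0.0731). Kcnd2 had 7.27%, 8.53% and 7.55% in the miR-29 arrays, against 8.69%, 10.9% and 9.06% in the control arrays. The groups did not overlap, but -0.29 (SE 0.108, adjusted p = 0.0601) did not pass, while spike-in scaling, quantile normalization and median centring carried it past the threshold (adjusted p = 0.0133, 0.0241 and 0.035). Kcnd3 overlapped between the groups, with 0.07 (95% interval -0.39 to 0.53).

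Kcnc2, of the fast-firing Kv3 group, had 5.65%, 4.48% and 5.46% in the miR-29 arrays, against 7.06%, 7.55% and 8.76% in the control arrays. It fell by 0.59 (SE 0.121, adjusted p = 0.00779), with -0.38 for a second probe (SE 0.112), and the call ended in the fit blocked by slide (-0.45, adjusted p = 0.0744), within slide 1 (adjusted p = 0.0861) and with normexp (-0.18, adjusted p = 0.0736). Kcna4, the gene of the A-type channel Kv1.4, had 4.4%, 5.23% and 4.71% in the miR-29 arrays, against 6.28%, 6.35% and 5.77% in the control arrays. That fall of 0.36 (SE 0.0802, adjusted p = 0.0101) did not pass with normexp (-0.11, adjusted p = 0.316). It did not pass within slide 1 either, where -0.40 was no smaller a difference. The remaining fall in this role was that of Kcna6, named here after its values were seen to complete the count, at -0.18 (adjusted p = 0.0438), which ended under 10 of the 18 alternatives, each control array left out among them, with values from -0.43 to -0.16 over all alternatives.

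Control replicate 1, on the slide of the miR-29 arrays, stood apart from the other control arrays in several dim pore subunits. It lay at least 0.5 below the mean of control replicates 2 and 3 on the log2 scale in 9 of 41 members (22%), against 8.76% of all genes. It lay at least 0.5 above that mean in 0 members, where only 1.58% of all genes did. Kcnc4 had 4.15%, 4.85% and 4.21% in the miR-29 arrays, against 3.59% in control replicate 1 and 5.71% and 6.88% in control replicates 2 and 3. Kcnh6 had 5.42%, 5.40% and 3.99% in the miR-29 arrays, against 3.75% in control replicate 1 and 7.76% and 6.57% in the others. In both genes the miR-29 arrays lay between the control of their own slide and the controls of the other slide.

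Without control replicate 1, 6 further members passed the test as lower, on top of members already lower with all arrays. Over all genes, the total share lower went from 22.8% with all arrays to 29.1% without that array. Among the 6 were Kcnh4 at -0.62 (adjusted p = 0.00414), Kcnc4 at -0.51 (adjusted p = 0.0119), Kcnq1 at -0.56 (adjusted p = 0.026), Kcnh6 at -0.55 (adjusted p = 0.0345) and Kcnd2 at -0.36 (adjusted p = 0.0378). Against control replicate 1 alone, these were not lower apart from Kcnd2, with log2 differences of 0.11 for Kcnh4, 0.29 for Kcnc4, 0.14 for Kcnq1 and 0.38 for Kcnh6. The median over the 41 members was 0.294 within slide 1, where that of all genes was 0.095. These pore subunits of voltage-gated channels were named here after their values were seen, apart from Kcnd2. The part of the slide in these differences was not tested apart from these values.

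**Figure D3:**
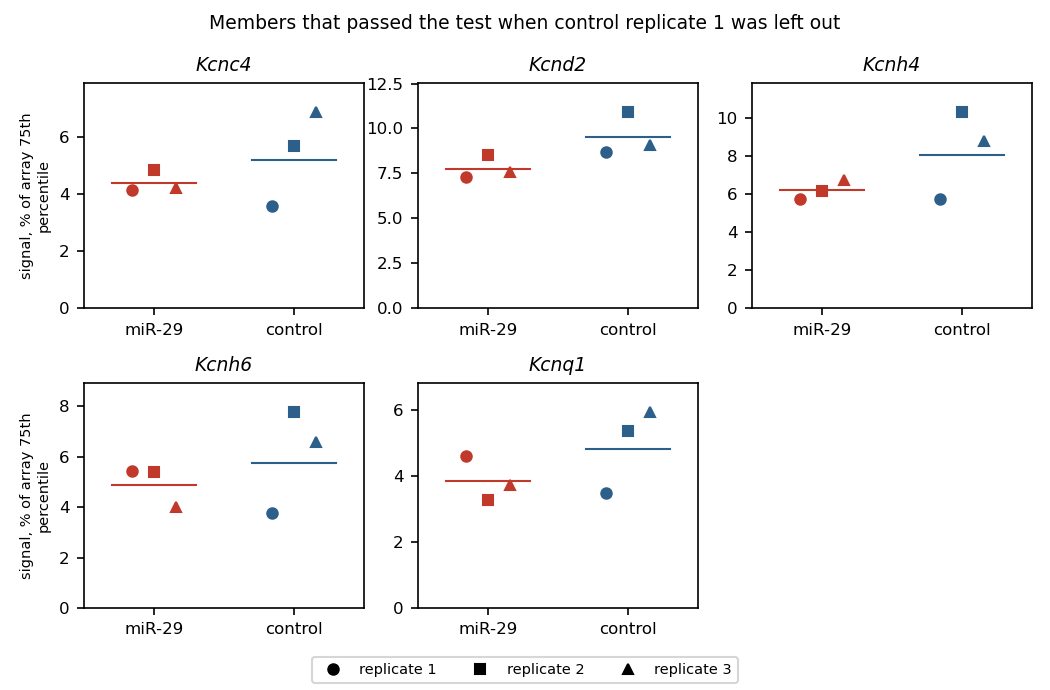
Signal of 5 voltage-gated pore subunit genes as a percent of the 75th percentile of each array (linear axis from 0), miR-29 arrays left and control arrays right, with symbols for replicates and a line at the geometric mean. In Kcnc4, Kcnh4, Kcnh6 and Kcnq1 the circle of control replicate 1 lies beside or under the miR-29 arrays and the other controls above, and in Kcnd2 every control array lies above the miR-29 arrays.

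Silent modifier subunits form no channel alone and alter the pores they join. Of 9 measured, 2 were above background. Kcnf1 had 35.2%, 30.7% and 33.2% in the miR-29 arrays, against 51.3%, 50.3% and 50.4% in the control arrays. It fell by 0.62 (SE 0.0622, adjusted p = 0.000475), with control arrays that differed by little. Kcns3 overlapped between the groups, at 0.10 (95% interval -0.19 to 0.38).

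Auxiliary and regulatory subunits bind the pores. Of 15 of their genes measured, 10 were above background, with 6 higher, Kcne1 among them without a test, and 1 lower. Another 3 were not past the test, Kcne2 among them as a description. Over all genes 35.3% were higher and 22.8% lower. Spike-in scaling left 3 higher and 1 lower. Kcnab3, a beta subunit of Kv1 channels, had 14.1%, 14.7% and 15.5% in the miR-29 arrays, against 7.74%, 7.48% and 8.56% in the control arrays. The rise of 0.90 (SE 0.0699, adjusted p = 0.000194) was the largest tested one of this role, with 0.39 under normexp (adjusted p = 0.00111). Kcnab2, another beta subunit gene, had 6.84%, 7.02% and 6.38% in the miR-29 arrays, against 4.78%, 5.99% and 5.16% in the control arrays. Its rise of 0.35 (SE 0.094, adjusted p = 0.0205) did not pass with spike-in scaling (0.11, adjusted p = 0.433), normexp (0.16, adjusted p = 0.193) or no filter (adjusted p = 0.0527), nor without miR-29 replicate 1 (0.34, adjusted p = 0.0627), miR-29 replicate 2 (0.32, adjusted p = 0.0697) or control replicate 3 (0.33, adjusted p = 0.0636). Kcnab1 overlapped between the groups, at 0.00 (95% interval -0.14 to 0.15).

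Kcnip genes encode calcium-binding partners of Kv4 channels, and the product of Kcnip3 is also known as the transcriptional repressor DREAM. Kcnip3 had 6.94%, 6.94% and 5.85% in the miR-29 arrays, against 4.25%, 4.20% and 3.94% in the control arrays. It rose by 0.67 (SE 0.0834, adjusted p = 0.00108), and with normexp it did not pass (0.14, adjusted p = 0.205). Kcnip1 had 62.3%, 59.5% and 72.8% in the miR-29 arrays, against 46.9%, 40.1% and 47.4% in the control arrays. That rise of 0.53 (SE 0.105, adjusted p = 0.00636) ended in the fit blocked by slide (0.46, adjusted p = 0.0573), within slide 1 (adjusted p = 0.0583) and with spike-in scaling (0.29, adjusted p = 0.0977).

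Kcne genes encode small single-pass subunits that slow or hold open their pores. Kcne1, a partner of Kcnq1 in the heart, had its brightest probe above background on every miR-29 array, at 2.75%, 2.25% and 2.95%. On no control array was that probe above background, at 1.40%, 1.56% and 1.14%. By this probe Kcne1 was at least 1.49-fold higher, set against the lowest signal above background on each control array. It has no test because its detection in the miR-29 arrays alone brought it in. A second probe, above background on 1 array of each group, overlapped between the groups (2.21%, 1.75% and 0.965% in the miR-29 arrays, against 0.462%, 1.34% and 1.9% in the control arrays). Kcne1l, now also named Kcne5, had 126%, 134% and 114% in the miR-29 arrays, against 86.8%, 97.4% and 87.5% in the control arrays. It rose by 0.46 (SE 0.0816, adjusted p = 0.00423), which spike-in scaling took below the threshold (0.21, adjusted p = 0.0841). The lower member of the role was Kcnmb4, a BK beta subunit gene named after its values were seen, with -0.25 (SE 0.0548, adjusted p = 0.00947), a call that ended in the fit blocked by slide (-0.23, adjusted p = 0.056) and within slide 1 (adjusted p = 0.0901). Kcne2 and Kcnmb2 overlapped between the groups, at 0.55 (95% interval -0.36 to 1.46) and 0.28 (adjusted p = 0.303). Kcne2 was above background on all miR-29 arrays but on only 1 control array, so its value is a description.

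Kcnq1ot1 is a long noncoding RNA made from the Kcnq1 locus on the opposite strand, known for silencing neighbouring imprinted genes, and encodes no channel. Its brightest probe had 97.8%, 99.6% and 89.4% in the miR-29 arrays, against 92.0%, 89.4% and 92.8% in the control arrays, with overlapping groups and a log2 fold change of 0.06 (95% interval -0.08 to 0.21, adjusted p = 0.378). Another of its 6 probes gave 0.66 (SE 0.219) and another 0.19 (SE 0.137), both above background throughout the miR-29 arrays only, and the mean over its probes above background, which rests on these too, was 0.30 (adjusted p = 0.0193). In the fit over all 26428 probes above background, 58% passed. Of the 6 members with more than 1 probe that met the filter, Kcnc2, Kcnn2 and Kcnt1 had a second one above background on all 6 arrays, with the values given above. The further probes of Kcnj16, Kcnk3 and Kcnq1ot1 were above background throughout 1 group only, so their differences are descriptions.

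**Figure D4:**
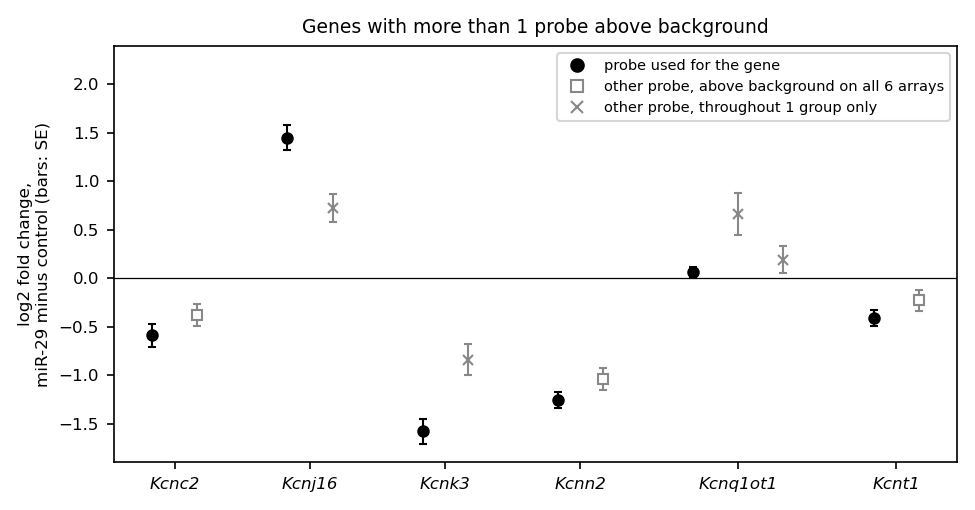
Log2 fold change, miR-29 minus control, with SE from the fit over 3 arrays a group, for each probe that met the filter in the 6 members with more than 1. Black circles are the probes used for the gene, open squares other probes above background on all 6 arrays, and crosses other probes above background throughout 1 group only, which are descriptions. The squares lie at -0.38 for Kcnc2, -1.04 for Kcnn2 and -0.23 for Kcnt1, and with spike-in scaling every value would sit 0.245 lower, so that the lower 2 values of Kcnq1ot1 would be negative.

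The other 44 members were not compared. Of these, 35 had no probe well above background on any array, and 9 had one on some arrays. Just outside the filter were Kcnj14, at 1.55% to 2.28% in the miR-29 arrays and 2.09% to 2.69% in the control arrays, and Kcnt2, at 1.66% to 2.74% and 1.57% to 3.12%, both above background on 2 arrays of each group. Just inside it were Kcne2, at 2.3% to 3.08% in the miR-29 arrays and 0.987% to 2.66% in the control arrays, and Kcnk4, at 2.46% to 2.77% and 1.87% to 3.32%. Both were above background throughout the miR-29 arrays only. Below background throughout were the Kv1 genes Kcna1, Kcna2, Kcna3 and Kcna5, the M current gene Kcnq3, and the G-protein-gated rectifier genes Kcnj3, Kcnj5, Kcnj6 and Kcnj9. A signal under background on these arrays gives no level for a transcript.

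Genes outside the family that move or sense potassium were taken from a list of 39, of which 38 had a matched probe and 27 were above background. Among them 7 fell and 8 rose, 12 missed the threshold, and the median log2 fold change was -0.10, against 22.8% lower and 35.3% higher genes overall. Spike-in scaling gave 14 lower and 4 higher. Slc12a5, the potassium chloride cotransporter KCC2 that keeps chloride low in neurons, had 118%, 132% and 118% in the miR-29 arrays, against 30.6%, 31.9% and 31.7% in the control arrays. It rose by 1.97 (SE 0.063, adjusted p = 2.92e-05, 3.91-fold), and its relative Slc12a7, the gene of KCC4, rose by 0.50 (SE 0.0532, adjusted p = 0.000578). Of 8 neuron markers compared, 4 were lower (Map2, Stmn2, Nefl and Slc17a7) and 1 was higher (Tubb3), while Rbfox3, Syt1 and Syn1 did not pass. Slc17a7 was above background on 1 miR-29 array and all control arrays, so its place in this count is a description. What part neurons had in the rise of Slc12a5 was not tested.

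Hyperpolarization-activated cation channels pass sodium and potassium. Hcn3 had 24.1%, 21.1% and 22.3% in the miR-29 arrays, against 11.0%, 12.7% and 11.2% in the control arrays, and rose by 0.95 (SE 0.0811, adjusted p = 0.000265; 0.60 with normexp). Hcn2 had 8.76%, 8.20% and 7.65% in the miR-29 arrays, against 8.14%, 14.2% and 12.9% in the control arrays, and -0.48 did not pass (adjusted p = 0.0969). It passed without control replicate 1 (-0.73, adjusted p = 0.00119) and was 0.01 within slide 1.

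The sodium-potassium pump returns potassium to the cell. Fxyd5, a regulator of the pump, had 24.7%, 24.7% and 23.9% in the miR-29 arrays against 62.8%, 56.9% and 57.7% in the control arrays and fell by 1.27 (SE 0.056, adjusted p = 4.54e-05). Tmem38a, a potassium-permeable channel of the endoplasmic reticulum, fell by 0.61 (SE 0.0487, adjusted p = 0.000208), and the exchanger gene Slc24a4 fell by 0.83 (SE 0.174, adjusted p = 0.00836; -0.42 within slide 1, -0.29 with normexp). The cotransporter gene Slc12a2 had -0.10 (SE 0.0457, adjusted p = 0.0957), which passed with spike-in scaling (-0.35, adjusted p = 0.0127). Dpp6, a partner of Kv4 channels, had 0.04 (SE 0.153, adjusted p = 0.835) and 0.39 in the fit blocked by slide (adjusted p = 0.00892).

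**Figure D5:**
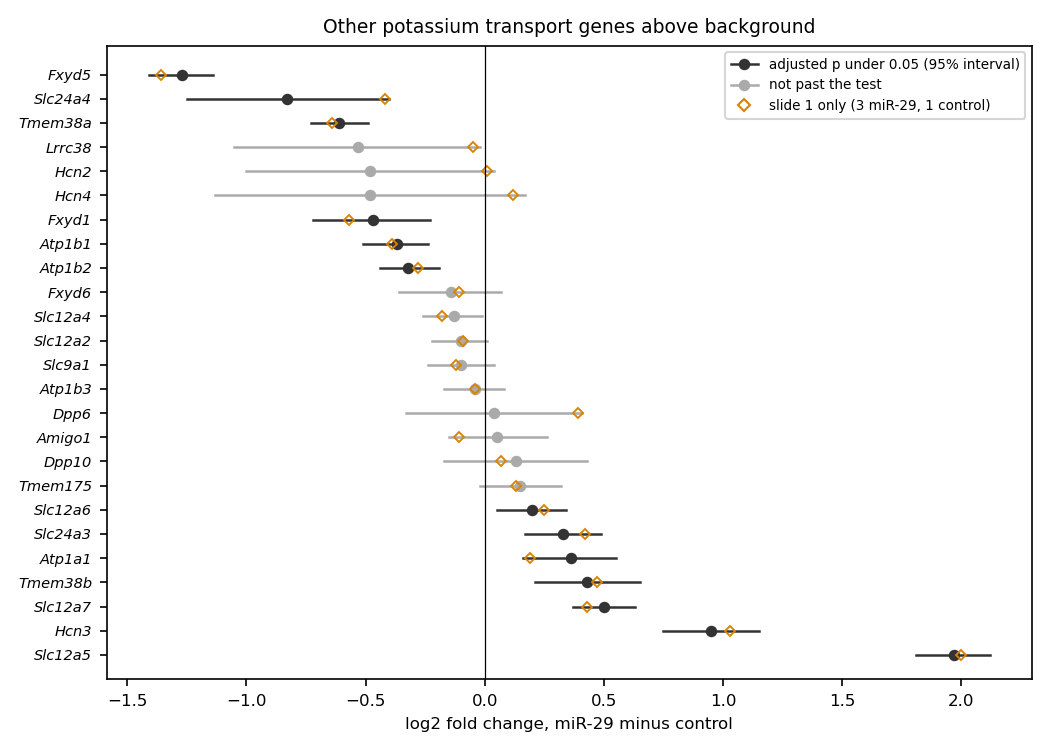
Log2 fold change, miR-29 minus control, of 25 of the 27 potassium transport genes above background outside the Kcn family, with 95% intervals from fits over 3 arrays a group (dark where adjusted p was under 0.05, grey otherwise). Open diamonds compare the miR-29 arrays with control replicate 1 on the same slide. Slc12a5 at 1.97 lies farthest right and Fxyd5 farthest left at -1.27, and with spike-in scaling every main value would sit 0.245 lower.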

How the data were processed

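RNA from 6 samples was hybridised to Agilent Whole Mouse Genome arrays. Per the file headers, Feature Extraction 10.7.3.1 made the deposited intensity of each spot and subtracted background (the submitters' processing notes give 10.7). The authors' series table holds the same intensity times 1 factor per array (2.627 to 3.427), linear and uncentred, and 0 columns of other samples.

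Here, log2 processed signal (floor 1) was centred on the 75th percentile of each array. Control spots and outliers were dropped, and repeat spots averaged per probe. Probes were named by unversioned RefSeq accession (26933 matched, 14241 not). The brightest probe that passed the detection filter stood for its gene (26428 probes, 19741 genes and transcripts). Groups were compared with limma 3.58.1 in R 4.3.3 (lmFit, eBayes, two-sided, Benjamini-Hochberg over all, threshold 0.05), after a check on simulated data. For a gene above background in 1 group only, the fold is a bound. The number of arrays limits precision.

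The members, their roles, the other potassium genes and the marker lists were chosen with earlier results of these data known. The text names the 24 members with the largest change among those past the test without overlap, those detected in 1 group only, 13 fixed members, and of the other list up to 4 in each direction with 6 fixed genes. Normexp used median spot signals in place of the planned mean signals. Other alternatives were other scalings, the series table, filters, probe averaging, a variance trend, slide and replicate blocks, and leaving out each array. Some genes that this rule names are not reported here, and the counts include them.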

Additional observations from a re-analysis of the deposited data

How the results depend on the processing

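Of the 23 members past the test and above background on all 6 arrays, 8 passed under each of the 18 alternatives (Kcnn4, Kcnk3, Kcnn2, Kcnf1, Kcnh2, Kcnk10, Kcnab3 and Kcnj16), 15 lost the call under at least 1, and 0 changed sign. Lower members numbered 12 and higher members 14. Normexp background correction left 7 and 6, spike-in scaling gave 6 higher, and the comparison within slide 1 gave 5 lower. Leaving out 1 array in turn gave 10 to 17 lower and 11 to 15 higher members. Other potassium genes numbered 7 lower and 8 higher, 14 and 4 with spike-in scaling, and 7 to 10 and 7 to 8 with 1 array left out. Offset 50 in normexp compresses dim probes by construction, and the cause of the other changes was not tested. Same-numbered arrays of the groups correlated at 0.132, 0.094 and 0.245 in their deviations and each correlated best with its own number, a hint from the data only. The replicate block gave 13 lower and 13 higher members, without Kcnq5 (adjusted p = 0.0538) and with Kcnd2 (adjusted p = 0.012). Over all genes, 60.8% of those past the test were higher, 29% with spike-in scaling. The arrays limit what can be said of the 44 dim members.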
